A study of Rattus norvegicus with 6 samples.

Results

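Cholesterol synthesis and its control were read in the colon through 8 genes, which are 6 enzymes of the pathway (Hmgcs1, Idi1, Fdps, Fdft1, Sqle and Lss), the transcription factor gene Srebf2 and its regulator Insig1. They were named as genes of the sterol pathway driven by SREBP2. No measured value enters that rule, but the names were picked with earlier results of these data known, so that a direction shared by the 8 genes is not independent evidence. All 8 were found among the 15168 genes that could be matched to a probe by accession, with 1 probe each except for Fdps, which had 2. The 9 probes were well above background on all 6 arrays. Each array read the colon RNA of a single male rat, 3 of the S.LEW(10)x12x2x3x5 congenic strain (C1, C2 and C3) and 3 Dahl salt-sensitive (S) rats (S1, S2 and S3). The congenic strain carries a short piece of chromosome from the normotensive Lewis rat on the background of the hypertensive S rat. All 6 rats were fed 0.3% NaCl, received azoxymethane (AOM, a colon carcinogen) as 2 weekly injections of 15 mg per kg that began when they were 6 weeks old, and were killed at 30 weeks. There was no group without AOM, and how much tumor tissue each piece of colon held is not stated. The epithelial markers Cdx2 and Krt20 were well above background on all 6 arrays.

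Cholesterol is built from acetyl-CoA, through mevalonate and the isoprenoids to squalene, which is then closed into lanosterol and trimmed to cholesterol. The genes of these enzymes are switched on together by SREBP2, the product of Srebf2. SREBP2 is held in the endoplasmic reticulum by Scap and the Insig proteins while sterols are plentiful, and it is cleaved and released to the nucleus when they run short. Insig1 is itself switched on by SREBP proteins and so closes a feedback loop. In the gut, epithelial cells make part of their own cholesterol by this route, and dividing cells need it for new membrane.

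The promoter stretches are shown because SREBP2 is known to act on sterol genes together with NF-Y, a factor that binds the CCAAT box. Promoter windows of 300 bases, 250 before and 50 after the start of each gene, came from RefSeq (GRCr8) and were matched for 6 of the 8 genes, the others being Sqle and Fdft1. In each line, which runs 5′ to 3′ on the strand of the gene, capitals mark the CCAAT box (ATTGG when it lies on the opposite strand), the E-box CACGTG and stretches that resemble a sterol regulatory element.
Hmgcs1, chr2:53382106-53382185, plus strand: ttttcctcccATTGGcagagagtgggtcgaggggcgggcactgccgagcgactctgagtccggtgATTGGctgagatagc
Idi1, chr17:66547545-66547600, minus strand: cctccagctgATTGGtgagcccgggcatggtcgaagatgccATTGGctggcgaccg
Fdps, chr2:176804887-176804956, minus strand: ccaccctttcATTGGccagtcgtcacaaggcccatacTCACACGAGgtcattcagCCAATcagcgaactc
Lss, chr20:12118298-12118322, minus strand: tgatgctctgATTGGccgcgctcgc
Insig1, chr4:8057833-8057972, minus strand: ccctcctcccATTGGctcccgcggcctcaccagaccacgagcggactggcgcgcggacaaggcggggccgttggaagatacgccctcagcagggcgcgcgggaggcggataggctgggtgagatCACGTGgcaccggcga
Srebf2, chr7:115543141-115543192, plus strand: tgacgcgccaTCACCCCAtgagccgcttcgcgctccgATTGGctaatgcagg

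The CCAAT box was present on either strand in all 6 windows, against 37.5% of the 33469 RefSeq windows of the same length. The E-box lay only in the window of Insig1, 79 bases before its start, against 6.42% of all windows. The Sp1 box GGGCGG was in 5 of the 6, the exception being Idi1, against 33.1%. The sterol regulatory element spelled TCACNCCAC, and its core CACCCCAC, which overlaps it, were in none of the 6 windows and in 1.12% and 2.7% of all windows, on either strand. Other spellings were tried only after the windows had been read. The element without its last base, TCACNCCA, was in the Srebf2 window 156 bases before the start (3.89% of all windows). The letters TCACACGAG were taken from the Fdps window itself, 103 bases before the start, so their match there was certain. Their share of all windows, 0.123%, is therefore no support for a sterol element in Fdps. In Fdps this stretch stood between a pair of CCAAT boxes of opposite strand. These matches describe letters in a window and are not measured binding sites.

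The signal of all 8 genes was lower on average in the S.LEW congenic rats than in the S rats, by a log2 fold change between -0.64 for Hmgcs1 and -0.17 for Lss, but no single gene passed the test. Of all 23997 probes tested, 48.7% had a log2 fold change below 0. The median of the 8 genes was -0.45, against 0.01 for all probes, whose quartiles were -0.28 and 0.36. No gene reached an adjusted p under 0.05 with limma or with the methods' t-test, and neither did any other probe of the array (0.00%). Without adjustment, limma gave 1 of the 8 genes, Insig1, a p under 0.05 and lower in the congenic rats, against 4.40% of all probes, and none of the 8 also reached 2-fold, against 2.34%. The methods' t-test gave 1 as well, Srebf2 in place of Insig1, against 2.55%. In Sqle, Insig1 and Srebf2, 3 of the 8 genes, every congenic rat lay below every S rat, as it did at 5.33% of all probes. For these 3 genes a two-sided exact permutation test gave p = 0.10, the smallest that 3 rats against 3 allow. In whole colon, fewer cells that make cholesterol and less RNA in each of them cannot be told apart.

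Hmgcs1 encodes the cytosolic HMG-CoA synthase, which feeds the mevalonate pathway. Its log2 signal in C1, C2 and C3 was 12.55, 12.82 and 12.29, against 13.10 in S1, 13.69 in S2 and 12.79 in S3. S2 stood clear of all other rats, while S3 lay just below C2, so that the strains overlapped. The congenic mean was 12.55 ± 0.26 (SD, n = 3) and the S mean 13.19 ± 0.46 (SD, n = 3), a log2 fold change of -0.64 (standard error, SE, 0.29, limma adjusted p = 0.398), or 1.56-fold lower. Without S2 the log2 fold change was -0.39.

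**Figure D1:**
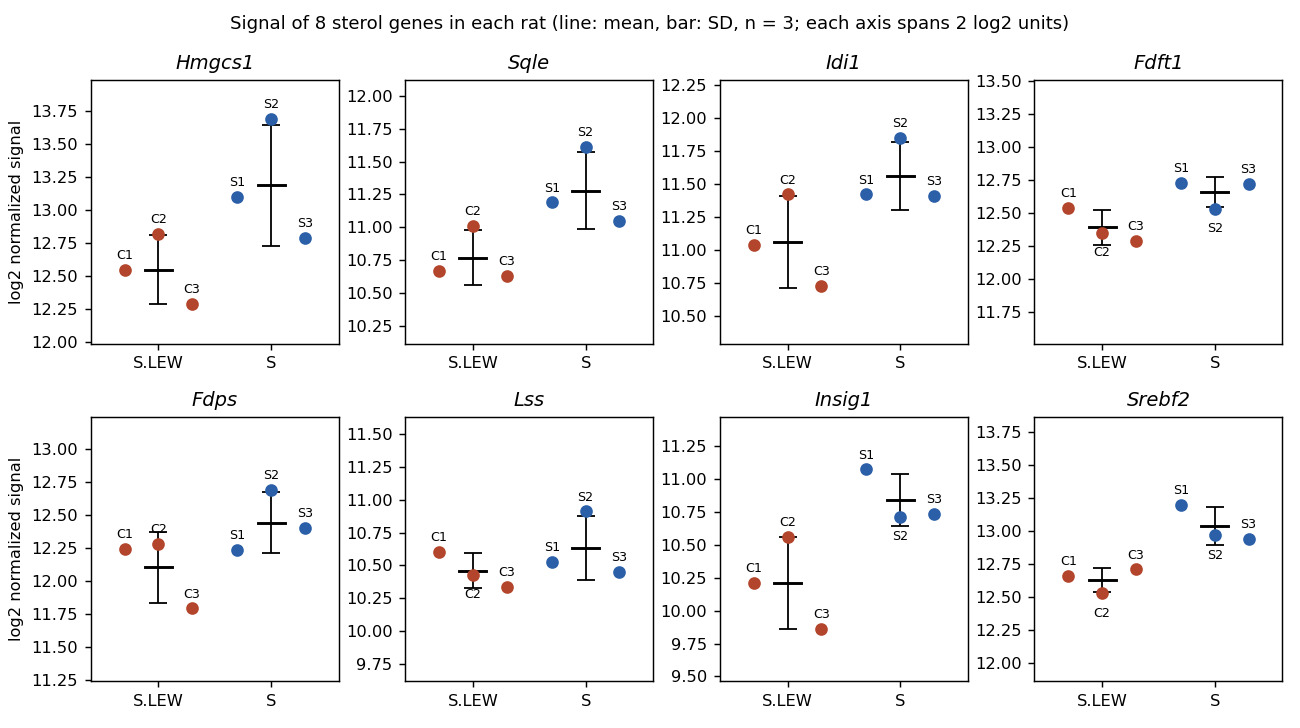
Log2 normalized signal (vertical axis) of the 8 genes in each rat, with the congenic rats in red at the left and the S rats in blue at the right of each panel; lines are means and bars the SD of 3 rats. The congenic points of Sqle, Insig1 and Srebf2 all lie below the S points, and S2 is the highest rat in Hmgcs1, Sqle, Idi1, Fdps and Lss.

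Insig1, the membrane protein that keeps SREBP2 in the endoplasmic reticulum, had a log2 signal of 10.21 in C1, 10.56 in C2 and 9.86 in C3, against 11.07 in S1, 10.71 in S2 and 10.73 in S3. The strains did not overlap, although C2 and S2 were only 0.16 apart. The log2 fold change was -0.63 (SE 0.24, limma adjusted p = 0.366), with a 95% interval from -1.20 to -0.05. Leaving out any 1 rat gave values between -0.80 and -0.45. Its unadjusted p no longer lay under 0.05 without C1, C3, S1 or S3, the log2 fold change remaining below 0 each time.

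Srebf2, which encodes SREBP2 itself, differed little between rats of the same strain, by at most 0.26. Its log2 signal in C1, C2 and C3 was 12.66, 12.53 and 12.71, against 13.20 in S1, 12.97 in S2 and 12.94 in S3. The highest congenic rat, C3, was 0.23 below the lowest S rat, S3, which was the widest gap of the 8 genes. The log2 fold change was -0.40 (SE 0.17, limma adjusted p = 0.389), or 1.32-fold lower, and lay between -0.45 and -0.32 when any 1 rat was left out.

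Sqle encodes squalene epoxidase, a rate-limiting step of the later pathway. It had a log2 signal of 10.67 in C1, 11.01 in C2 and 10.63 in C3, against 11.19 in S1, 11.61 in S2 and 11.05 in S3. C2 and S3 were 0.04 apart, so that the separation of the strains rested on a small gap. The log2 fold change was -0.51 (SE 0.22, limma adjusted p = 0.393), or 1.43-fold lower, and -0.35 without S2.

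Idi1 makes the reactive isomer of the isoprenoid unit. Its log2 signal in C1, C2 and C3 was 11.04, 11.42 and 10.73, against 11.42 in S1, 11.85 in S2 and 11.41 in S3. C2 was thus level with S1 and S3, and C3 was the lowest. The log2 fold change was -0.50 (SE 0.25, limma adjusted p = 0.426), and -0.33 without C3.

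The enzymes that join these units, Fdps and Fdft1, differed less. Fdps, which makes farnesyl diphosphate, the branch point to sterols and prenylated proteins, had a log2 signal at its brighter probe of 12.24 in C1, 12.28 in C2 and 11.79 in C3, against 12.23 in S1, 12.69 in S2 and 12.40 in S3. Only C3 lay apart from the S rats, and the log2 fold change was -0.34 (SE 0.22, limma adjusted p = 0.506), -0.18 without C3 and -0.21 without S2. The dimmer Fdps probe gave -0.11 (SE 0.25, limma adjusted p = 0.838), and 0.09 without S2, so that the direction for Fdps depended on the probe and on that rat. Fdft1, squalene synthase, had a log2 signal of 12.54 in C1, 12.35 in C2 and 12.29 in C3, against 12.73 in S1, 12.53 in S2 and 12.72 in S3. C1 and S2 were nearly equal, and the log2 fold change was -0.27 (SE 0.17, limma adjusted p = 0.499).

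Lss, which closes squalene epoxide into lanosterol, had the smallest difference among the brightest probes. Its log2 signal in C1, C2 and C3 was 10.60, 10.43 and 10.34, against 10.53 in S1, 10.91 in S2 and 10.45 in S3. S1 and S3 lay within the congenic range, and the log2 fold change of -0.17 (SE 0.20, limma adjusted p = 0.683) was -0.03 without S2. Its 95% interval, from -0.65 to 0.31, covers differences in either direction.

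The rats of a strain also differed from each other, in a similar way for many of the 8 genes. C3 was the lowest of all 6 rats for 7 of the 8 genes, the exception being Srebf2, whose lowest rat was C2. How often C3 was the lowest rat, or S2 the highest, over all probes was not counted. Among the congenic rats C2 was the highest for 5 genes, Hmgcs1, Sqle, Idi1, Fdps and Insig1. Averaged over the 8 genes, each taken relative to its own mean over the arrays, the log2 signal was -0.18 in C1, -0.06 in C2, -0.41 in C3, 0.19 in S1, 0.38 in S2 and 0.07 in S3. S2 was the highest of all rats for the 5 enzymes Hmgcs1, Sqle, Idi1, Fdps and Lss, exceeding the mean of S1 and S3 by 0.74 in Hmgcs1, 0.49 in Sqle and 0.44 in Idi1. S1 was the highest for Fdft1, Insig1 and Srebf2, where S2 was lower than the mean of S1 and S3, by 0.10 in Srebf2.

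**Figure D2:**
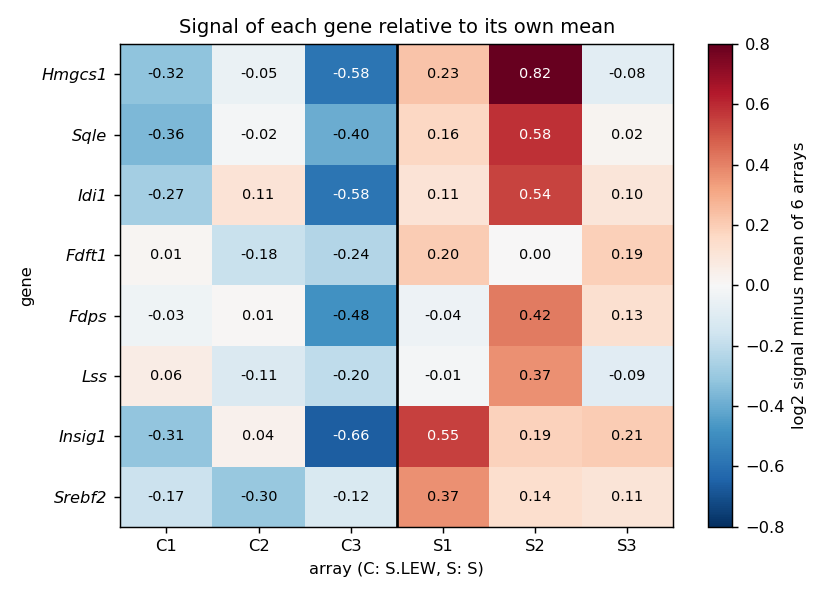
Log2 signal of each gene (rows) in each array (columns, congenic rats left of the line and S rats right of it) minus the mean of that gene over the 6 arrays, with the value written in each cell. C3 is the lowest array in 7 of the 8 rows, and S2 is the highest in the rows of Hmgcs1, Sqle, Idi1, Fdps and Lss.

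The array of S2 stood apart from the other S arrays over the whole array. Across probes it correlated at 0.967 to 0.976 with the congenic arrays, and at 0.900 with S1 and 0.937 with S3. Without S2, all 8 genes were still lower in the congenic rats, with a median log2 fold change of -0.35. Insig1 (-0.69) and Srebf2 (-0.44), 2 of the 8, then had an unadjusted p under 0.05 with limma, against 18.3% of all probes that were lower in the congenic rats at that limit. None of the 8 had an adjusted p under 0.05, the smallest being 0.103 for Insig1, while 10.6% of all probes were lower at that limit. By their scan times the arrays fell into a pair of groups, taken as slides, C1 with the 3 S rats and C2 with C3. A comparison within a slide thus sets C1 alone against the S rats. Blocked by slide, the strain difference in log2 signal was -0.65 for Hmgcs1, -0.62 for Insig1, -0.61 for Sqle, -0.52 for Idi1, -0.38 for Srebf2, -0.21 for Fdps, -0.12 for Fdft1 and -0.03 for Lss, and none of the 8 had an unadjusted p under 0.05.

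**Figure D3:**
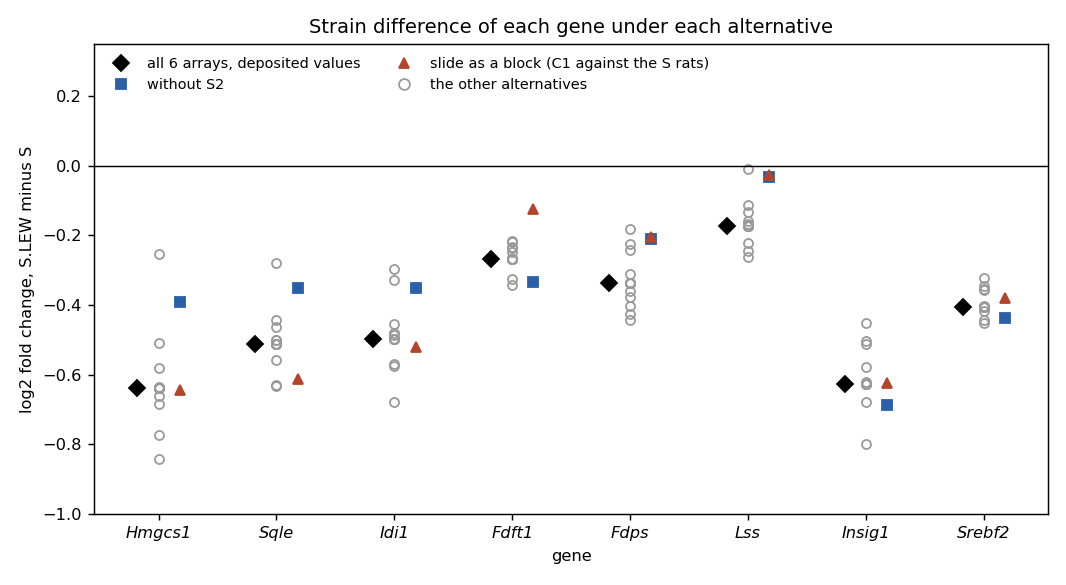
Log2 fold change of each gene, congenic minus S (vertical axis), with all 6 arrays (black), without S2 (blue squares), with the slide as a block (red triangles) and under each other alternative (open circles). Every point lies below 0, and those of Lss without S2 and with the slide as a block are at -0.03.

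The other enzymes of cholesterol synthesis did not share the direction of the 8 genes. Of 14 such genes, all tested, 7 had a log2 fold change below 0 and 7 above it, with a median of -0.03, and none had an unadjusted p under 0.05 with limma. Mvd, the decarboxylase that ends the mevalonate steps, had a log2 fold change of -0.68 (SE 0.28, limma adjusted p = 0.385), with S1 at 10.35 and S3 at 9.90 but S2 at 9.40, below C2 at 9.44. Cyp51, the demethylase of lanosterol, had -0.46 (SE 0.23), and -0.26 without S2. Msmo1, which removes further methyl groups, had -0.46 (SE 0.21). In Cyp51, Msmo1 and the sterol reductase Tm7sf2 (-0.25), 3 of the 14, every congenic rat was below every S rat, as at 5.33% of all probes. In Tm7sf2 the gap was small, with C3 at 8.13 and S2 at 8.15. Several later steps lay on the other side. Dhcr7, a reductase of the last steps, had a log2 fold change of 0.29 (SE 0.20), the isomerase Ebp 0.27 (SE 0.23), the dehydrogenase Nsdhl 0.22 (SE 0.19) and the desaturase Sc5d 0.11 (SE 0.18). Further values were -0.18 for the reductase Hsd17b7, -0.12 and 0.07 for the kinases Pmvk and Mvk, and 0.09 for the thiolase Acat2, each smaller than its standard error. Without S2 the value of Mvk was -0.03.

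**Figure D4:**
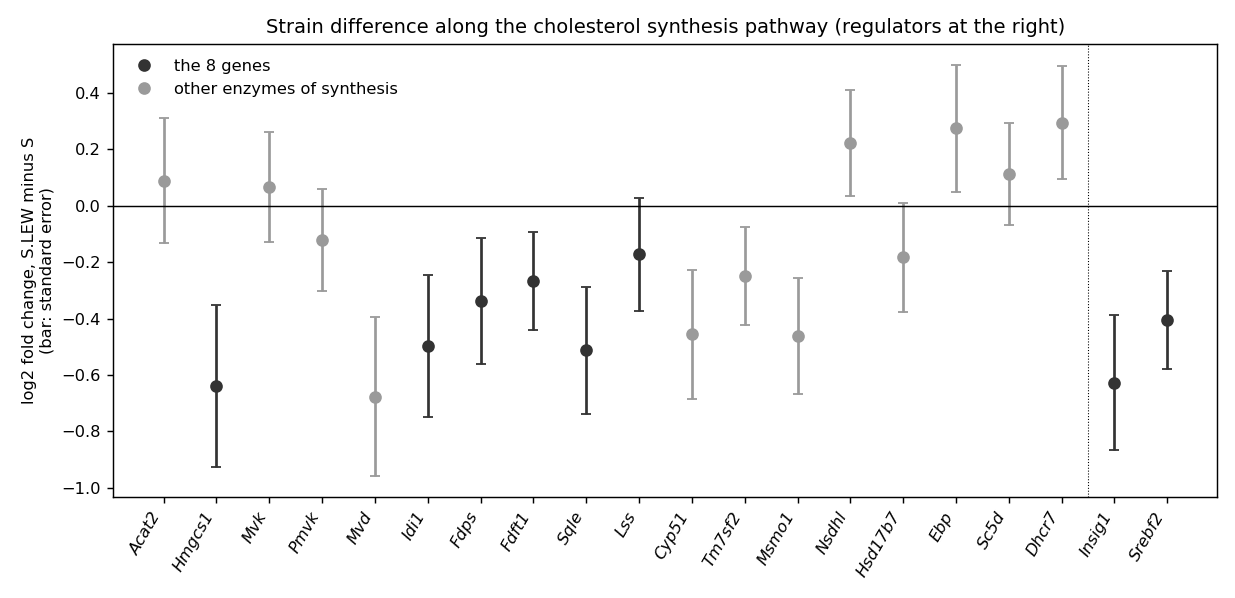
Log2 fold change, congenic minus S (vertical axis, bars show the standard error), of enzymes in the order in which they act from acetyl-CoA to cholesterol, with Insig1 and Srebf2 right of the dotted line; black points are the 8 genes and gray points 12 of the 14 other enzymes. Every black point is below 0, while Nsdhl, Ebp, Sc5d and Dhcr7 are above it.

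The partners of SREBP2 showed little difference. Of 11 genes for the escort, cleavage and turnover of SREBP proteins, 9 were tested, and none had an unadjusted p under 0.05 with limma. Their log2 fold changes had a median of -0.09 and ran from -0.15 to 0.35, the largest being that of Erlin1, a membrane protein of the endoplasmic reticulum (SE 0.19, limma adjusted p = 0.441). Srebf1, the related factor of fatty acid synthesis, was not matched to a probe by accession.

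Among 14 genes of cholesterol uptake, lysosomal release and transfer, 1 was higher in the congenic rats at an unadjusted p under 0.05 with limma, against 8.58% of all probes, and none was lower. It was Cd36, a scavenger receptor that also takes up fatty acids. Its log2 signal in C1, C2 and C3 was 8.80, 9.22 and 9.12, against 8.24 to 8.29 in the S rats. The log2 fold change was 0.78 (SE 0.18, limma adjusted p = 0.268). The median of the list was -0.19.

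Of 12 genes around the liver X receptors, sterol efflux and storage, 10 were tested, 2 were lower (4.40% of all probes) and 1 was higher (8.58%) at that limit. The value was below 0 in 7 of the 10, and their median log2 fold change of -0.60 was below the -0.45 of the 8 genes. The pattern over the S rats was not the same. Relative to the mean of the arrays, the 10 averaged 0.78 in S1, 0.81 in S3 and -0.55 in S2, where the 8 genes averaged 0.38. In C1, C2 and C3 the 10 averaged -0.49, -0.52 and -0.03. Cyp27a1, which makes an oxysterol, had a log2 fold change of 0.69 (SE 0.22, limma adjusted p = 0.333). Ch25h, which makes another oxysterol, had -0.76 (SE 0.24, limma adjusted p = 0.322) and was well above background in 2 of 3 congenic rats. Abcg5, a part of the sterol exporter of the gut, was not well above background in any congenic rat and was at least 1.64-fold lower there (adjusted p = 0.354 from limma). That bound sets the mean of the S rats against the higher of the probe's own signal and the lowest signal well above background on each congenic array. In Abcg5 the S rats ranged from 4.31 in S2 to 7.29 in S3, overlapping C3 at 4.39.

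In the branches that lead from mevalonate and HMG-CoA to other products, 13 of 14 genes were tested, 3 were higher in the congenic rats at an unadjusted p under 0.05 with limma (8.58% of all probes) and none was lower (4.40%). The median of the list was 0.08. Among them, Pdss2, for the side chain of coenzyme Q, had a log2 fold change of 0.58 (SE 0.17, limma adjusted p = 0.308) and Dhdds, for dolichol, 0.54 (SE 0.22, limma adjusted p = 0.384). In Pdss2 and Dhdds every congenic rat was above every S rat, as at 12.4% of all probes.

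Of 13 genes of fatty acid synthesis, the pathway driven by the related factor SREBP1, 12 were tested, 3 were higher at the same limit (8.58% of all probes) and none was lower (4.40%). Me1, the cytosolic malic enzyme, had a log2 fold change of 1.27 (SE 0.31, limma adjusted p = 0.268), Mid1ip1, an activator of acetyl-CoA carboxylase, 0.87 (SE 0.29), and the elongase Elovl6 0.48 (SE 0.17). In these 3 genes every congenic rat was above every S rat, as at 12.4% of all probes, and 1 of them, Me1, was also over 2-fold higher, as were 3.23%. The value was below 0 in 5 of the 12. In 1 of the 12, Acly, which makes cytosolic acetyl-CoA for both fatty acids and sterols, every congenic rat was below every S rat, with a log2 fold change of -0.39 (SE 0.17, limma adjusted p = 0.393). Acly was chosen after its values were seen. The list had a median of 0.10.

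The profile of the 8 genes over the 6 arrays was compared with that of 10756 other genes well above background on all arrays, each relative to its own mean, by the root mean square difference. The nearest were Nkx2-8 (0.06), Timp1 (0.06), Pspc1 (0.06), Msmo1 (0.07) and Aifm3 (0.08), where the median over all genes was 0.42. Msmo1 was the only enzyme of cholesterol synthesis among these 5, and its log2 signal ran from 10.28 in C3 to 11.12 in S2. Of the 8 genes themselves Sqle was nearest to their mean profile (0.11), and Hmgcs1 and Insig1 were farthest (0.21 each). Each of the 8 enters that mean, which makes its distance smaller, so these distances cannot be set against those of other genes.

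Markers of other cells also differed between the rats. Of 11 tested markers of colonic epithelium, 7 were higher (8.58% of all probes) and 1, Aqp8, was lower (4.40%) in the congenic rats at an unadjusted p under 0.05 with limma. Relative to the mean of the arrays they averaged from -0.05 (C3) to 0.56 (C1) in the congenic rats and from -0.50 (S1) to -0.16 (S2) in the S rats on the log2 scale, higher in the strain in which the 8 genes were lower. The 7 tested markers of dividing cells, none under that limit, stood at -0.06 in C1, 0.25 in C2, -0.62 in C3, 0.61 in S1, -0.50 in S2 and 0.32 in S3. Their order among the congenic rats, with C2 highest and C3 lowest, was that of Hmgcs1, Sqle, Idi1, Fdps and Insig1. It was not that of Fdft1, Lss or Srebf2. Their order among the S rats, with S1 highest and S2 lowest, was that of Insig1 and Fdft1 only. Insig1 alone thus had the same order in both strains. How many of all probes share these orders was not counted. In Hmgcs1, Sqle, Idi1, Fdps and Lss, S2 was the highest S rat. Of the lymphoid markers, 6 of 12 were tested, and 5 of these were lower at that limit (4.40% of all probes). They stood at 3.89 in S1 and 3.72 in S3, whereas S2, at -1.78, resembled the congenic rats, which ran from -2.12 to -1.73. The 6 tested adipocyte markers, 4 of them higher at that limit (8.58% of all probes), ranged from 0.09 to 0.98 in the congenic rats and from -0.85 to -0.33 in the S rats. The part of these cells in the values of the 8 genes was not tested.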

How the data were processed

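Colon RNA of 6 rats was read on single-color Agilent arrays, 1 per rat. The authors read the images with Feature Extraction 11.0.1.1, and each deposited scanner file holds a background-corrected intensity per spot with no scaling across arrays. Quantile normalization by the authors in GeneSpring GX 12.1, and a filter to probes detected on 3 or more of the 6 arrays, left the deposited log2 values of 23997 probes used here. On every array these correlated at 0.9986 or more with the log2 intensity of the scanner files, which set the scale, and they were not centered per gene. Column medians lay between 8.55 and 8.57. Quantile normalization removes any overall shift between arrays. Median intensity ranged from 214 to 594, and 73.8% to 87.6% of spots were well above background. There were no saturated spots. The number of arrays limits the precision.

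Probes were named by accession through RefSeq genes of GRCr8 (18005 of 30367 probes), and the array design was built on another assembly. The brightest probe stood for a gene, and all probes of the 8 genes are given. The strain difference was fitted without covariates by lmFit and eBayes of limma 3.58.1 (R 4.3.3), which had been tested on simulated data, and p-values were adjusted over the 23997 probes by Benjamini-Hochberg. The 95% intervals are from the same fit. The methods' t-test was unpaired with equal variances. The 3 samples of a strain are separate rats. The slide was inferred from the scan time in the file headers alone.

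The 8 genes and all lists were chosen with earlier results of these data known, so lists are described by counts and medians only. Named were all probes of the 8 genes, the other synthesis enzymes, and in each other list the genes with an unadjusted p under 0.05 or, failing that, the largest difference, and the 5 nearest profiles. Some listed genes are not reported here. Marker lists of goblet cells (3 of 6 tested higher), macrophages (1 higher and 1 lower of 8), smooth muscle (1 of 8 higher) and skeletal muscle (3 of 7 lower) were counted at the same limit. Of all probes, 8.58% were higher and 4.40% lower there. The alternatives were scanner values with quantile or 75th percentile scaling, normexp (offset 50, on the median spot signal because the files hold no mean signal), other filters, array weights, the methods' t-test, a block for slide or for replicate number, the mean of all probes of a gene, and leaving out each rat in turn. Plots were drawn with matplotlib 3.10.9.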

Additional observations from a re-analysis of the deposited data

How the results depend on the processing

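The log2 fold change of each of the 8 genes, at its brightest probe, was below 0 under all 16 alternatives, 128 values in all. None had an adjusted p under 0.05. These values are not independent, since all alternatives draw on the same 6 arrays. The filter on all 6 arrays, the methods' t-test and the replicate block leave the log2 fold change unchanged, so its sign was fixed. The mean of all probes of a gene also leaves it unchanged, except for Fdps. In Sqle, Insig1 and Srebf2 every congenic rat lay below every S rat. Their sign was therefore also fixed with array weights, the slide block and each rat left out. The dimmer Fdps probe, at 0.09 without S2, is not among the 128. The median of the 8 genes ranged from -0.53 to -0.35 with each rat left out in turn. Under the others it ranged from -0.45 to -0.29, the end at -0.29 being that of array weights. The number of the 8 genes lower at an unadjusted p under 0.05, 1 in the main comparison, was 4 with normexp (4.40% of all probes), 3 with array weights (21.3%), 2 with the filter on all 6 arrays (3.86%), 2 with no filter (4.17%), 0 with the slide as a block (1.24%), and 0 to 2 with each rat left out (1.32% to 18.3%). Of the 14 other enzymes of cholesterol synthesis, none was lower at that limit in the main comparison, 2 were with normexp, 1 each with the 75th percentile, the filter on all 6 arrays and array weights, and 0 to 1 with each rat left out. The 5 other pathway lists had 9, 14, 10, 13 and 12 tested genes. Of all these genes, 2 were lower (4.40% of all probes) and 8 higher (8.58%). The 2 became 0 with the filter on all 6 arrays, 16 with array weights, 4 with the replicate block, 1 with the slide as a block and 0 to 13 with each rat left out, 13 without S2. The 8 became 2 with the slide as a block and 3 to 10 with each rat left out, 3 without S3. The probes under that limit in either direction, 3115 in the main comparison, were 1102 with the slide as a block. They were 1288 without S3 and 9843 without S2. Of all probes, 21.3% were lower at that limit with array weights and 18.3% without S2, against 4.40% in the main comparison. The cause of the changed counts was not tested, except that the filter on all 6 arrays takes out Abcg5 and Ch25h. Array weights gave S3 a weight of 4.9 and S2 one of 0.16, and put 8549 probes under an adjusted p of 0.05, where the main comparison had none. There were 5553 without S2 and 41 without S1. Nothing but the number links C1 to S1, C2 to S2 and C3 to S3: taken relative to their strain mean, these pairs correlated at -0.02, -0.13 and -0.06 across 23997 probes. With the replicate block, 1 of the 8 genes, Hmgcs1, was lower at an unadjusted p under 0.05 (4.37% of all probes). No alternative moved the median over all probes by over 0.1 on the log2 scale. Signal over background did not limit the 8 genes, but it limits Abcg5 to a bound.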
